A study of Arabidopsis thaliana with 9 samples.

Results

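The cytosolic ribosomal protein genes followed here are 42 genes of the nuclear genome of Arabidopsis thaliana, picked by name from the 27206 genes of the count table, with earlier results of these data known. They encode proteins of 26 families, and 26 of the genes belong to the large ribosomal subunit and 16 to the small one. All 42 were expressed well enough to be tested, among 17622 tested genes. All plants were wild-type Col-0, and 3 biological replicates each were taken of leaves not yet wounded (before wounding), leaves wounded 30 min earlier and leaves wounded 60 min earlier. Polyadenylated RNA was sequenced from soil-grown plants kept in short days, so transcripts carrying a poly(A) tail were measured and not ribosomes or protein. The labels name no unwounded leaves taken at 30 or 60 min and no hour of harvest, so the time since wounding and the hour of the day cannot be told apart.

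A cytosolic ribosome is built from a large and a small subunit, each a core of ribosomal RNA dressed with many different proteins. Most of them are needed in equal numbers. In Arabidopsis nearly every one of these proteins is encoded by several genes, called paralogs, which can be expressed at different levels. Making ribosomes is among the most costly tasks of a growing leaf cell. Transcription and translation of these genes are tied to growth signals, among them the TOR kinase, which acts when nutrients and energy are plentiful, and the SnRK1 kinases, which act when energy is short. The large subunit carries the peptidyl transferase centre, where peptide bonds form, the tunnel through which the new chain leaves, and a flexible stalk of P proteins that recruits the elongation factors. The small subunit reads the messenger RNA.

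Library totals ran from 14300929 counts (30 min replicate 1) to 22970735 counts (before wounding, replicate 1). Levels are given as CPM, counts scaled to a common library total with TMM factors, and as CPM per kilobase of annotated exons wherever genes are compared with each other. A gene was called when its adjusted p from edgeR's quasi-likelihood test was under 0.05. All 8 listed markers of photosynthetic leaf cells were well expressed and together took 18.2 to 20.2% of counts before wounding, between 15.9 and 18.3% at 30 min and between 15.4 and 17.1% at 60 min. Of 4 markers of root, flower and seed only PYK10 was tested, the root iron transporter gene IRT1 was at 0 counts in every library, and AG and CRA1 had 0 to 9 counts. In a whole leaf, fewer cells of a type and less RNA per cell cannot be told apart.

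The ribosomal protein genes were among the abundant transcripts of the leaf, with a median of 136 CPM per kb over all samples, against 5.30 CPM per kb for the tested genes. Their median stood at percentile 97.1 of the tested genes. After wounding they were lower as a group. At 30 min 35 of the 42 fell against before wounding and 0 rose, where 13.4% of all tested genes fell and 14.5% rose. At 60 min 36 fell and 0 rose, where 15.3% of all tested genes fell and 17.1% rose. The median log2 change of the 42 was -0.73 at 30 min and -0.84 at 60 min, and that of all tested genes was 0.02 and 0.06. Every fitted change was below 0 at both times, from -2.21 to -0.34 at 30 min and from -1.94 to -0.25 at 60 min. The CPM of the 3 samples lay wholly below those from before wounding for 41 genes at 30 min and for 36 at 60 min, and the same was true of 21.5% and 22.5% of all tested genes.

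By the F test over the 3 times 36 of the 42 differed, where 32.1% of all tested genes did. The same 34 genes fell at both times, 22 of the large subunit and 12 of the small. RPS10B fell at 30 min without a call at 60 min, and RPL10B and AT5G15200 fell at 60 min without one at 30 min. RP1, SAG24, AT2G40010, RPS15A and RPS18C were called at neither time. A fall of at least 1 on the log2 scale was seen in 9 called genes at 30 min and in 15 at 60 min. The matching share of all tested genes was not computed. Their 5th percentile of log2 change was -1.27 at 30 min and -1.32 at 60 min, and their 25th percentile -0.40 at both. The comparisons at 30 and 60 min share the samples from before wounding. Of the 26 large subunit genes 22 fell at 30 min and 23 at 60 min, with median log2 changes of -0.74 and -0.96. Of the 16 small subunit genes 13 fell at each time, with medians of -0.58 and -0.71. The difference between the subunits was not tested.

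**Figure D1:**
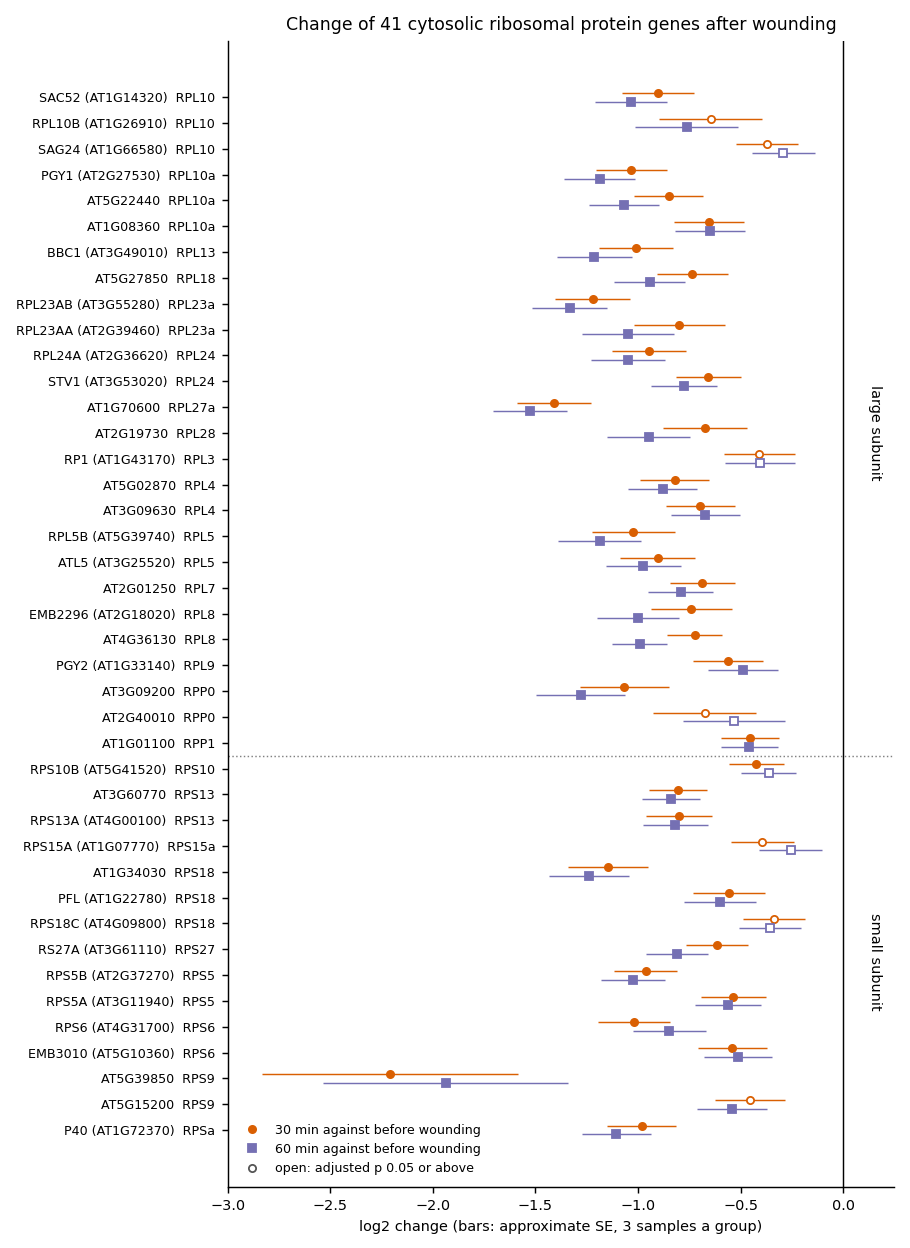
Log2 change of 41 of the 42 genes at 30 min (circles) and 60 min (squares) against before wounding, with the approximate SE (3 samples a group), grouped by subunit and family; open symbols mark genes that were not called. All points lie below 0, with AT5G39850 lowest at both times.

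As a share of all counts, which needs no scaling factor, the 42 genes took 0.864, 0.863 and 0.982% before wounding, 0.683, 0.506 and 0.568% at 30 min, and 0.651, 0.543 and 0.592% at 60 min. Both later groups lay below every sample from before wounding. The mean was 0.317 points lower at 30 min (0.585% ± 0.0900 against 0.903% ± 0.0683, SD, n = 3 each), with an exact two-sided permutation p of 0.1, the smallest that 3 against 3 samples can give. At 60 min it was 0.308 points lower, with the same exact p of 0.1. In several libraries most of the 42 genes deviated from their group's mean in the same direction. Before-wounding replicate 3 was above its group's mean for all 42 genes, 30 min replicate 1 was above it for all 42, and 60 min replicate 2 was below it for 39. TMM factors were 0.887 to 0.993 before wounding, between 0.912 and 1.09 at 30 min and between 1.00 and 1.20 at 60 min, and their part in these deviations was not tested.

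Single libraries decided part of the calls. Without before-wounding replicate 3 the count at 30 min was 22, where 9.42% of all tested genes fell, and without 30 min replicate 3 it was also 22, where 10.2% fell. In all, 21 of the 35 calls at 30 min and 25 of the 36 at 60 min held without any 1 library. The matching share over all tested genes was not computed. At 30 min a call was lost without at least 1 of before-wounding replicates 2 and 3 and 30 min replicates 2 and 3 for 14 genes, among them AT1G01100, AT1G08360, AT2G19730, AT3G09630, AT5G39850, EMB2296, EMB3010, PFL, PGY2, RPL23AA, RPS10B, RPS5A and RS27A. At 60 min 11 calls, among them those of AT1G01100, AT1G08360, AT3G09630, AT5G15200, AT5G39850, EMB3010, PFL, PGY2, RPL10B and RPS5A were lost without before-wounding replicate 3, and most of them also without another library. The log2 changes of all 42 genes stayed below 0 at both times in every alternative tried. With DESeq2 37 fell at 30 min and 37 at 60 min (15.1% and 17.4% of all tested genes), with limma-voom 35 and 36 (13.7% and 16%), and scaled by library size alone 32 and 30 (10.2% and 9.78%). At an adjusted p under 0.01 there were 23 at 30 min, where 7.85% of all tested genes fell.

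The stalk of the large subunit is anchored by protein P0, which binds ribosomal RNA and carries the smaller P1 and P2 proteins. AT3G09200, the main P0 gene, had 573, 739.9 and 853 CPM before wounding, 422, 324 and 289 CPM at 30 min, and 365, 213 and 315 CPM at 60 min. No sample after wounding reached the lowest from before it. Its level fell by 52.2% at 30 min (log2 change -1.07 ± 0.22, SE, adjusted p = 0.00228) and by 58.8% at 60 min (log2 change -1.28 ± 0.22, adjusted p = 0.000566). The second P0 gene, AT2G40010, was far less abundant, at 11.8 CPM per kb before wounding against 495 CPM per kb for AT3G09200. It had 13.4, 18.5 and 20.3 CPM before wounding, 12.7, 12.4 and 7.72 CPM at 30 min and 16.1, 9.32 and 10.7 CPM at 60 min. It was not called at either time (adjusted p = 0.0619 and 0.121), and only 58.0% of its exonic stretches of 50 bases occur in no other gene, so its counts are uncertain. AT1G01100, a P1 gene, had 207, 224 and 236 CPM before wounding, 175, 143 and 169 CPM at 30 min, and 184, 147 and 155 CPM at 60 min. The groups did not overlap, and the falls were small, at 27.0% and 27.1% (adjusted p = 0.0269 and 0.0231).

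RPL10 joins the large subunit late in its assembly and lies close to the sites where transfer RNAs sit. In Arabidopsis the product of SAC52, also called RPL10A, is also known as a target of an immune receptor-like kinase, NIK1, that lowers translation. SAC52 had 533, 558 and 615 CPM before wounding, 379.7, 255 and 279 CPM at 30 min, and 320.1, 230.4 and 282 CPM at 60 min. It fell by 46.5% at 30 min (log2 change -0.90 ± 0.17, adjusted p = 0.00167) and by 51.2% at 60 min (log2 change -1.04 ± 0.17, adjusted p = 0.000554). Its paralog SAG24, named as a senescence-associated gene, had 118, 106 and 121 CPM before wounding, 99.1, 91.9 and 75.9 CPM at 30 min and 92.1, 79.9 and 109.8 CPM at 60 min. The 60 min samples of SAG24 overlapped those from before wounding, and it was not called (log2 change -0.37 and -0.29, adjusted p = 0.0882 and 0.162). RPL10B, the least abundant of the family at 6.06 CPM per kb before wounding, had 5.92, 6.53 and 6.57 CPM before wounding, 4.39, 4.51 and 3.28 CPM at 30 min and 2.80, 4.70 and 3.68 CPM at 60 min. It was called at 60 min (log2 change -0.76 ± 0.25, adjusted p = 0.0324) and not at 30 min (log2 change -0.65, adjusted p = 0.0742).

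Genes of RPL10a, RPL9 and RPL5 are known in Arabidopsis from mutants with altered leaf polarity, which gave PGY1 and PGY2 their names, piggyback. PGY1, an RPL10a gene, had 261, 277 and 316 CPM before wounding, 166, 123 and 128 CPM at 30 min, and 146, 97.9 and 131 CPM at 60 min. Its samples after wounding lay far under those from before it, and it fell by 51.1% and 56.1% (log2 change -1.03 ± 0.17 and -1.19 ± 0.17, adjusted p = 0.000598 and 0.000187). The other two RPL10a genes also fell at both times, AT1G08360 by 36.4% and 36.2% and AT5G22440 by 44.5% and 52.3%. ATL5 and RPL5B encode RPL5, which carries the 5S ribosomal RNA into the large subunit. They fell by 46.6% and 50.8% at 30 min, and by 49.1% and 56.1% at 60 min. PGY2, an RPL9 gene, fell by 32.2% and 28.6%, but its 60 min samples of 139.8, 113 and 126 CPM overlapped those from before wounding, at 139, 185 and 207 CPM. Only 45.8% of the stretches of 50 bases of PGY2 are found in no other gene, so the split of reads with its near copy is uncertain.

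The largest fitted falls of the large subunit at both times were in AT1G70600 and RPL23AB. AT1G70600 encodes RPL27a and had 137, 124 and 151 CPM before wounding, 63.1, 49.0 and 43.4 CPM at 30 min, and 58.4, 38.8 and 45.9 CPM at 60 min. All 6 samples after wounding lay well under the lowest from before it, and the gene fell by 62.4% and 65.3% (log2 change -1.41 ± 0.18 and -1.53 ± 0.18, adjusted p = 7.08e-05 and 3.31e-05). RPL23a lies at the mouth of the exit tunnel. RPL23AB had 64.1, 64.2 and 80.5 CPM before wounding, 36.4, 25.3 and 28.0 CPM at 30 min, and 30.8, 21.8 and 30.3 CPM at 60 min. The groups were well apart, with falls of 57.1% and 60.3% (log2 change -1.22 ± 0.18 and -1.33 ± 0.18, adjusted p = 0.000248 and 0.000108). Its paralog RPL23AA fell by 42.5% and 51.6%. BBC1, which encodes RPL13, had 235, 230.5 and 297 CPM before wounding, 148, 109 and 122 CPM at 30 min, and 129, 84.0 and 116 CPM at 60 min. It fell by 50.3% and 56.8% (log2 change -1.01 ± 0.18 and -1.21 ± 0.18, adjusted p = 0.000981 and 0.000225).

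RPL3, RPL4 and RPL8 reach with long extensions toward the peptidyl transferase centre or the tunnel. RP1, an RPL3 gene, had 186, 211 and 235 CPM before wounding, 169.5, 173 and 134 CPM at 30 min and 158, 126 and 193 CPM at 60 min. The 60 min samples overlapped those from before wounding and the gene was not called (log2 change -0.41 at both times, adjusted p = 0.0953 and 0.0859). Both RPL4 genes fell, AT3G09630 by 38.3% and 37.2% and AT5G02870 by 43.4% and 45.6%. Of the RPL8 genes, EMB2296 fell at both times (adjusted p = 0.0130 and 0.00177), with 401, 418 and 487 CPM before wounding, 318, 243 and 221 CPM at 30 min and 261, 154 and 237 CPM at 60 min. AT4G36130 had 75.5, 76.8 and 86.9 CPM before wounding, 51.7, 48.6 and 44.6 CPM at 30 min, and 44.0, 35.8 and 40.4 CPM at 60 min. It was the 1 gene of the 42 whose 60 min samples all lay below its 30 min samples, where 8.03% of all tested genes did so. It fell by 39.4% and 49.7% against before wounding (adjusted p = 0.00125 and 0.000103), and 78.6% of its stretches of 50 bases occur in no other gene.

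The remaining large subunit genes fell at both times as well. STV1 encodes RPL24, known in Arabidopsis for letting ribosomes start again after short upstream reading frames. It fell by 36.6% at 30 min and 41.6% at 60 min (adjusted p = 0.00719 and 0.00220), and its paralog RPL24A by 48.0% and 51.7%. AT2G01250, an RPL7 gene, fell by 37.8% and 42.3%, and AT5G27850, an RPL18 gene, by 39.9% and 48.0%. AT2G19730, which encodes RPL28, had 184, 193 and 246 CPM before wounding, 157, 124 and 111 CPM at 30 min and 133, 76.4 and 114 CPM at 60 min. It fell by 37.3% and 48.2% (adjusted p = 0.0244 and 0.00306).

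**Figure D2:**
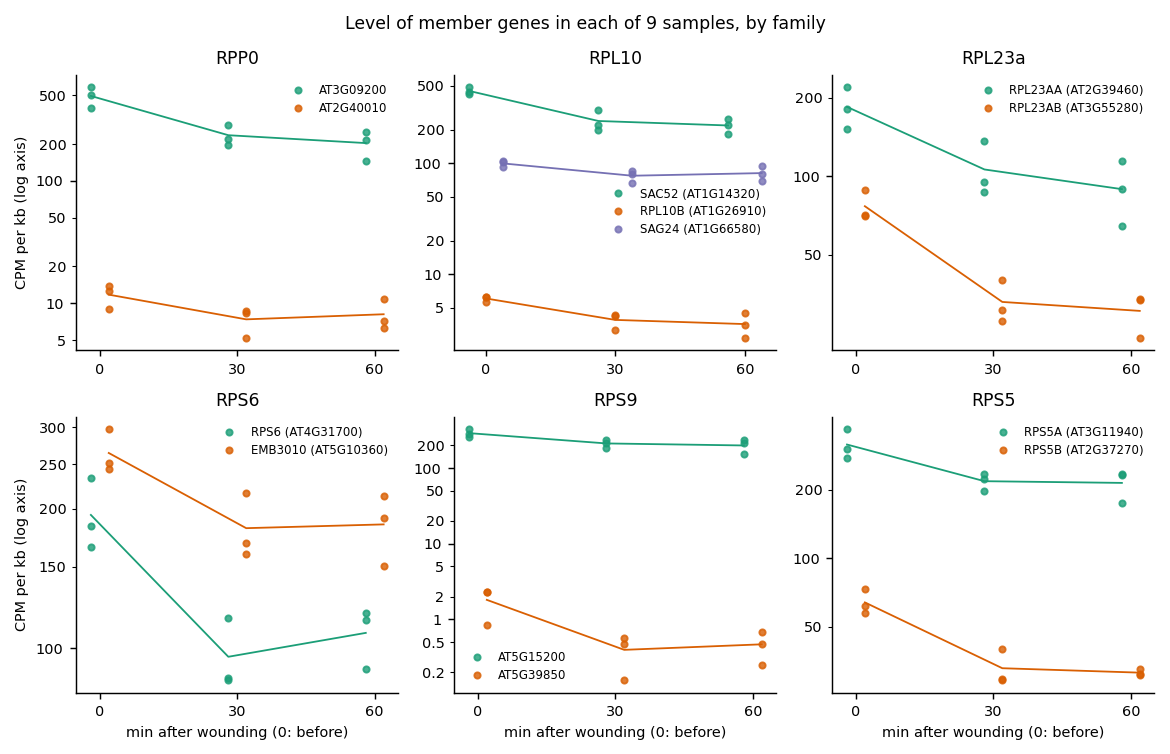
CPM per kb of exons (log axis) of the genes of 6 families in each of the 9 samples before wounding (0) and at 30 and 60 min; each point is 1 sample and lines join the means of 3 samples. AT3G09200, SAC52, RPL23AB, the RPS6 genes and RPS5B drop between 0 and 30 min and stay low, while the 60 min samples of SAG24 and AT2G40010 overlap those from before wounding.

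In the small subunit, RPS6 is the protein phosphorylated by S6 kinase downstream of TOR. The gene labelled RPS6 (AT4G31700) had 196, 217 and 275 CPM before wounding, 137, 102 and 101 CPM at 30 min, and 140.4, 106 and 135 CPM at 60 min. The later samples lay below all from before wounding, with falls of 50.7% and 44.4% (log2 change -1.02 ± 0.18 and -0.85 ± 0.18, adjusted p = 0.000765 and 0.00244). Its paralog EMB3010, whose protein differs at 13 of 250 aligned positions, had 291, 299 and 354 CPM before wounding, 258, 202 and 190.4 CPM at 30 min and 228, 179.5 and 255 CPM at 60 min. The falls were smaller, at 31.2% and 29.9% (adjusted p = 0.0275 and 0.0308).

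RPS18 is encoded by PFL, AT1G34030 and RPS18C, whose annotated coding sequences translate to the same 152 residues, so the 3 genes make one protein from separate promoters. PFL is known for the pointed first leaves of its mutant. The windows from 250 bases before to 30 bases after each annotated gene start are shown for these 3 genes because their transcripts had unequal fitted changes. They come from the TAIR10.1 assembly with RefSeq gene starts, PFL from chr1:8067614-8067893 (plus strand), AT1G34030 from chr1:12371525-12371804 (minus strand) and RPS18C from chr4:6173462-6173741 (plus strand). Capitals mark TGGGCC or TGGGCT (the core of a site II element) and AAACCCTA (the core of a telo box), searched on both strands.
PFL: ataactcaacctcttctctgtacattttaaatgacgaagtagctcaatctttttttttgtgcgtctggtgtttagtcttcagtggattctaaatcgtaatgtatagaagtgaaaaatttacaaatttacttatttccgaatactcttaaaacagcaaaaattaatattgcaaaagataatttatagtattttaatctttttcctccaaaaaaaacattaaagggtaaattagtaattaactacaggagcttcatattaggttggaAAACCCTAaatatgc
AT1G34030: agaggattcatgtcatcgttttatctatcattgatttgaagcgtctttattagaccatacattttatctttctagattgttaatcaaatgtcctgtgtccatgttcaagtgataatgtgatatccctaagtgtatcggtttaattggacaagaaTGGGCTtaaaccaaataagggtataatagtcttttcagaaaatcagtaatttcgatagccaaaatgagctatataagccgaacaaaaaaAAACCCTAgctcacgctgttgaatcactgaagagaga
RPS18C: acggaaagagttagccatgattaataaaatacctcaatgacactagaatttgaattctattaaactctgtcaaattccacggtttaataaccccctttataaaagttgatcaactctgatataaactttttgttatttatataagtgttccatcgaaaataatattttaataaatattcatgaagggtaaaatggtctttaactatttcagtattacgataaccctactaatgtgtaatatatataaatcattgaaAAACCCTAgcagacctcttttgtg
All 3 windows hold a telo box core near the start, and AT1G34030 also holds a site II core. AT1G34030 had 74.8, 83.5 and 108 CPM before wounding, 50.3, 41.4 and 28.9 CPM at 30 min, and 38.5, 38.2 and 36.2 CPM at 60 min. It fell by 54.9% and 57.6% (log2 change -1.15 ± 0.19 and -1.24 ± 0.19, adjusted p = 0.000644 and 0.000320). PFL had 117, 141 and 160.2 CPM before wounding, 114, 91.7 and 79.6 CPM at 30 min, and 99.5, 75.2 and 101 CPM at 60 min. Its later samples lay just below the lowest from before wounding, and it fell by 31.9% and 34.1% (adjusted p = 0.0301 and 0.0180). RPS18C, the most abundant of the 3 at 259.8 CPM per kb before wounding, had 173, 209 and 243 CPM before wounding, 175, 172 and 148 CPM at 30 min, and 164, 146 and 178 CPM at 60 min. Its groups overlapped at both times and it was not called (log2 change -0.34 and -0.36, adjusted p = 0.117 and 0.0860). RPS18C overlaps a gene on the other strand, as do RPL24A, PGY2, AT5G27850, AT2G40010, AT4G36130 and P40. Whether the counting used strand is not stated.

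The RPS9 genes stood at opposite ends of abundance. AT5G15200 had 352, 386 and 443 CPM before wounding, 321, 288 and 254 CPM at 30 min, and 289, 208 and 314 CPM at 60 min. It was called at 60 min, where it fell by 31.3% (adjusted p = 0.0263), and not at 30 min (log2 change -0.45, adjusted p = 0.0640). AT5G39850 was the rarest of the 42 genes, at 1.81 CPM per kb before wounding. It had 20, 50 and 47 counts before wounding (0.877, 2.42 and 2.36 CPM), 7, 12 and 4 counts at 30 min (0.487, 0.583 and 0.164 CPM), and 6, 13 and 16 counts at 60 min (0.259, 0.493 and 0.709 CPM). The groups did not overlap, and its fitted changes were the largest of all and the least precise (log2 change -2.21 ± 0.62 and -1.94 ± 0.60, adjusted p = 0.0174 and 0.0238). Without before-wounding replicate 2 neither change was called (adjusted p = 0.0772 and 0.0996), and calls were also lost without before-wounding replicate 3, 30 min replicate 3 (at 30 min) and 60 min replicates 1 and 2 (at 60 min).

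RPS5A is known for its strong activity in dividing cells, and RPS5B is its paralog. RPS5B had 72.3, 77.7 and 92.0 CPM before wounding, 50.3, 36.8 and 37.2 CPM at 30 min and 41.1, 38.8 and 39.1 CPM at 60 min. It fell by 48.7% and 50.9%, against 31.0% and 32.2% for RPS5A. The RPS13 genes fell by similar amounts, RPS13A by 42.5% and 43.3% and AT3G60770 by 42.8% and 44.1%, and their proteins differ at 1 of 151 positions. P40 encodes RPSa, a relative of the laminin receptor precursor of animals. It had 409, 455 and 498 CPM before wounding, 270.3, 204 and 215 CPM at 30 min and 244, 168 and 221 CPM at 60 min, falls of 49.4% and 53.5%.

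RS27A, which encodes RPS27, fell by 34.6% and 43.0%. RPS10B had 137, 154 and 168 CPM before wounding, 124, 109 and 108 CPM at 30 min, and 128, 108 and 120.3 CPM at 60 min. It fell by 25.5% at 30 min (adjusted p = 0.0307) and was just outside the threshold at 60 min (log2 change -0.36, adjusted p = 0.0532). RPS15A had 256, 304 and 357 CPM before wounding, 249, 240.1 and 209 CPM at 30 min and 280.0, 224 and 265 CPM at 60 min. Its 60 min samples overlapped those from before wounding and it was not called (log2 change -0.39 and -0.25, adjusted p = 0.0745 and 0.229).

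Between 60 and 30 min no gene was called. By edgeR, DESeq2 and limma-voom 0 of the 42 genes were called. By edgeR 0 had an unadjusted p under 0.05, against 2196 of all 17622 tested genes. At the adjusted threshold edgeR called 1.3% of all tested genes lower and 0.721% higher. In either direction DESeq2 called 3.98% of all tested genes and limma-voom 2.31%. The median log2 difference was -0.08, with 31 genes fitted lower at 60 min and 11 higher. Of all 17622 tested genes 8296 were fitted lower and 9326 higher. The range ran from -0.28 for AT2G19730 to 0.27 for AT5G39850. A p that misses the threshold does not show that the levels were equal. Level and size of fall showed little relation once the rarest gene was left out. Pearson's r between mean level and log2 change was 0.43 at 30 min and 0.29 at 60 min over 42 genes, and 0.02 and -0.02 without AT5G39850. The genes share libraries and are not independent.

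Within families the fitted falls differed between paralogs, so shares were set side by side. The share of each gene in the summed counts per kilobase of its family was computed for the 68 genes of the 26 families, which include 26 genes outside the 42. Shares of a family add up to 100%, so a lower share of one gene is a higher share of another. Of the 42 genes, 24 had shares at 30 min that did not overlap those before wounding, 12 below and 12 above, and 29 did so at 60 min, 16 below and 13 above. Over all 68 family genes 52.9% did so at 30 min (27.9% below and 25% above) and 58.8% at 60 min (30.9% below and 27.9% above). With 3 samples a group the exact permutation p of a share cannot go below 0.1, and none of the 136 shares tested passed after adjustment (smallest adjusted p = 0.179).

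The widest shift was in RPL13. BBC1 supplied 52.9, 49.5 and 49.6% of the family before wounding, 37.3, 29.6 and 39.2% at 30 min, and 36.3, 30.7 and 32.9% at 60 min. AT5G23900 supplied the rest and was not called (log2 change -0.10 and -0.19). In RPL27a, AT1G70600 supplied 50.1, 44.1 and 46.9% before wounding, 37.0, 34.4 and 36.8% at 30 min, and 34.9, 35.1 and 33.5% at 60 min. Its paralog RPL27AB fell less (log2 change -0.75 and -0.77). In both families the later samples lay below all those from before wounding (exact permutation p = 0.1, adjusted p = 0.179).

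In RPS18 the share of AT1G34030 was 20.8% ± 1.01 before wounding, 13.6% ± 1.84 at 30 min and 13.4% ± 1.69 at 60 min (SD, n = 3 each), while that of RPS18C was 46.8% ± 0.446, 54.4% ± 3.19 and 54.8% ± 1.23. Neither gene's later shares overlapped those from before wounding. The shares of PFL overlapped at all times, at 32.4% ± 0.622, 32.0% ± 1.78 and 31.8% ± 2.14. In RPL10, SAC52 supplied 80.9% ± 1.17, 74.5% ± 3.46 and 71.9% ± 3.13, and SAG24 18.0% ± 1.20, 24.3% ± 3.21 and 26.9% ± 2.92. The gene labelled RPS6 supplied 42.2% ± 1.76, 34.5% ± 0.681 and 36.9% ± 1.75 of its family, with no overlap at either later time. RPL10a moved in the same way, with PGY1 at 47.9% ± 2.45, 41.5% ± 3.51 and 39.3% ± 0.937. In RPS13 the share of AT3G60770 was 41.1% ± 2.06, 40.9% ± 1.5 and 40.6% ± 2.65, and all groups overlapped. In RPL8 that of EMB2296 was 85.1% ± 0.344, 84.8% ± 1.51 and 84.7% ± 2.45.

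**Figure D3:**
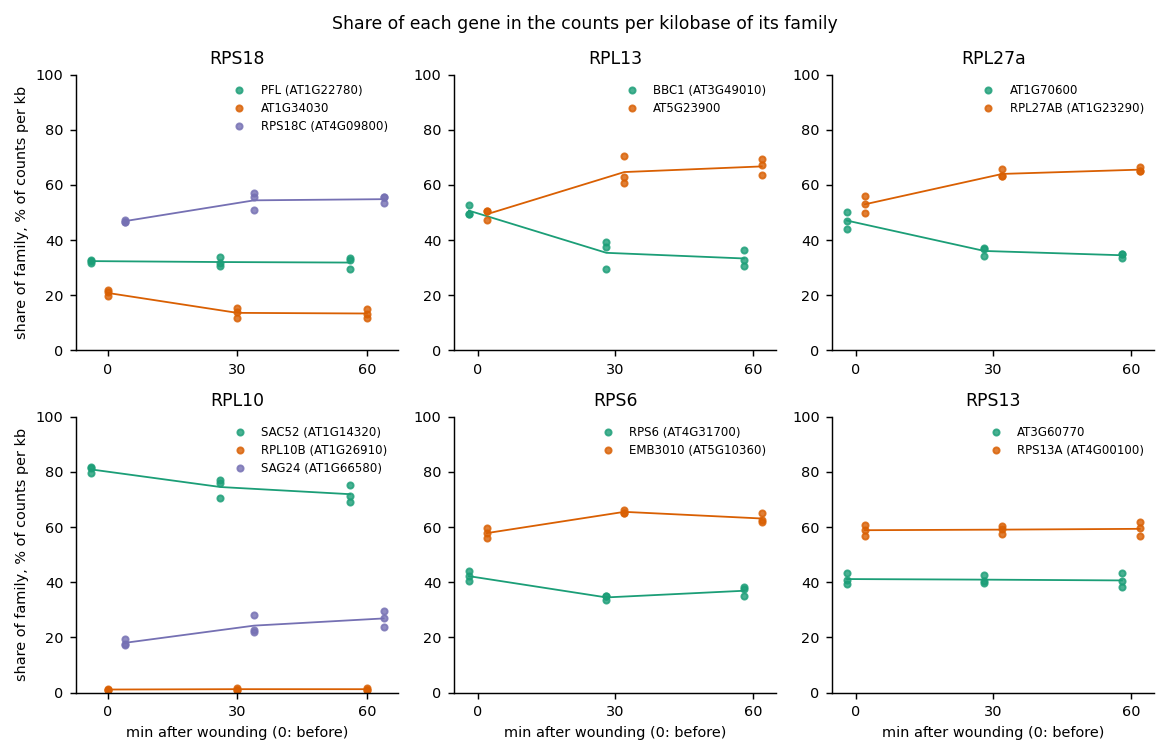
Share of each gene in the counts per kilobase of its family (%), in each of the 9 samples before wounding (0) and at 30 and 60 min; points are samples, lines join means of 3, and a gene with 0 counts is left out. BBC1, AT1G70600, AT1G34030, SAC52 and the gene labelled RPS6 have lower shares after wounding, while those of the RPS13 genes overlap.

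The other genes of the translation machinery were read from lists. Of 178 other cytosolic ribosomal protein genes counted, 165 were tested. Of these, 138 fell at 30 min and 139 at 60 min, 83.6% and 84.2% against 13.4% and 15.3% of all tested genes. Their median log2 changes were -0.75 and -0.80, close to those of the 42. RPL18AA was the 1 gene called higher at each time (log2 change 0.79 and 0.73), named after its values were seen. The 3 with the smallest F test p were AT3G28900 (an L34e protein, log2 change -1.40 and -1.42), AT2G32060 (an S12e-like protein, -1.22 and -1.30) and AT5G04800 (an S17 protein, -0.96 and -1.21). The list shares libraries with the 42 and is no independent check.

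Factors that assemble ribosomes in the nucleolus were called lower in part. Of 34 tested, 18 fell at 30 min and 12 at 60 min, where 13.4% and 15.3% of all tested genes fell, and 16 and 22 were not called, with median log2 changes of -0.71 and -0.54. FIB2, a fibrillarin that methylates ribosomal RNA, had 8.46, 6.53 and 8.18 CPM before wounding, 1.18, 1.12 and 1.72 CPM at 30 min and 1.85, 2.50 and 1.99 CPM at 60 min. It fell by 2.51 and 1.86 on the log2 scale (adjusted p = 2.75e-05 and 0.000177). AT5G27120, a NOP56-like protein, fell by 1.90 and 1.57, and NAP57, the pseudouridine synthase dyskerin, by 1.54 and 1.29. Summed over the list the level was 41.5% lower at 30 min and 33.7% lower at 60 min than before wounding. Between 60 and 30 min edgeR called 0 of the genes, and 5 of 34 had an unadjusted p under 0.05. So did 2196 of all 17622 tested genes. Of the 34 genes 29 were fitted higher at 60 min, as were 9326 of the 17622.

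Translation factors changed less as a list. Of 42 tested, 16 fell and 1 rose at 30 min, where 13.4% of all tested genes fell and 14.5% rose. At 60 min 15 fell and 1 rose, where 15.3% fell and 17.1% rose. The median log2 changes were -0.36 and -0.34. PAB4, a poly(A) binding protein (log2 change -1.26 and -1.29), RACK1B_AT, a scaffold on the small subunit (-1.55 and -1.58), and AT5G12110, an elongation factor 1-beta gene (-1.15 and -1.27), had the smallest F test p. AT2G18110, the 1 gene that rose, changed by 0.42 and 0.54. Nuclear genes for plastid ribosomal proteins were called lower in 4 of 35 cases at 30 min, 11.4% against 13.4% of all tested genes (RPL9 of the plastid, AT3G54210, RPL27 and PSRP5, named after their values were seen) and in 17 of 35 at 60 min, 48.6% against 15.3%, with medians of -0.29 and -0.41. RPL27, a plastid gene by function, fell at both times (log2 change -0.56 and -0.73). RPL12-C and PRPL35 fell at 60 min (log2 change -1.04 and -0.72) and were not called at 30 min. None of these lists was tested against the 42.

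Among 13 regulators of ribosome production 4 rose at 30 min and 5 at 60 min, where 14.5% and 17.1% of all tested genes rose. None fell, where 13.4% and 15.3% of all tested genes fell, and the list is too short to set these apart. S6K2, a kinase that phosphorylates RPS6, had 1.80, 1.45 and 1.20 CPM before wounding, 14, 16.3 and 21.2 CPM at 30 min, and 9.09, 10.2 and 11.6 CPM at 60 min. All later samples were far above those from before wounding (log2 change 3.52 ± 0.24 and 2.79 ± 0.24, adjusted p = 3.31e-07 and 2.14e-06). The SnRK1 kinase gene KIN11 rose by 1.30 and 1.10 on the log2 scale (adjusted p = 4.57e-05 and 0.000149). KIN10 rose by 0.67 and 0.71, and TOR rose by 0.81 and 1.17 (adjusted p = 0.0118 and 0.000970). AT5G13240 rose at 60 min (log2 change 0.47, adjusted p = 0.0487), with samples that overlapped, and was not called at 30 min. These are transcript levels, and kinase activity was not measured.

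Markers of other cells were set beside these values. In the photosynthetic list 1 of 8 fell at 30 min (RBCS1B, log2 change -1.82), 12.5% against 13.4% of all tested genes. At 60 min 4 of 8 fell (RBCS1A, RBCS1B, RBCS2B and RCA), 50% against 15.3%. The median log2 changes were -0.36 and -0.58. Of 10 genes of dividing cells, 1 fell at 30 min (SYP111, log2 change -0.96), 10% against 13.4% of all tested genes. At 60 min 0 fell by edgeR, against 15.3%. Of the 10 genes 0 had an unadjusted p under 0.05 at 60 min, against 7515 of all 17622 tested genes. The summed level of the 10 genes was 29.9 to 31.2 CPM before wounding, between 24.7 and 26.4 CPM at 30 min and between 26.5 and 29.0 CPM at 60 min. Of 5 genes of epidermis, guard cells and phloem only KCS6, which acts in wax synthesis, was called (log2 change 0.99 and 1.26). Of all tested genes 14.5% and 17.1% rose. The summed level of the list was 388 to 421 CPM before wounding, between 411 and 605 CPM at 30 min and between 458 and 563 CPM at 60 min. Its median log2 changes were -0.00 and -0.01, with 3 of the 5 genes fitted lower at each time. PCNA1, MCM2, KAT1 and SUC2 were not called at either time (log2 change from -0.68 to -0.00 at 30 min and from -0.71 to -0.01 at 60 min). PYK10 fell at both times (log2 change -1.04 and -1.08) with overlapping samples. The part of cell composition in the fall of the 42 genes was not tested.

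**Figure D4:**
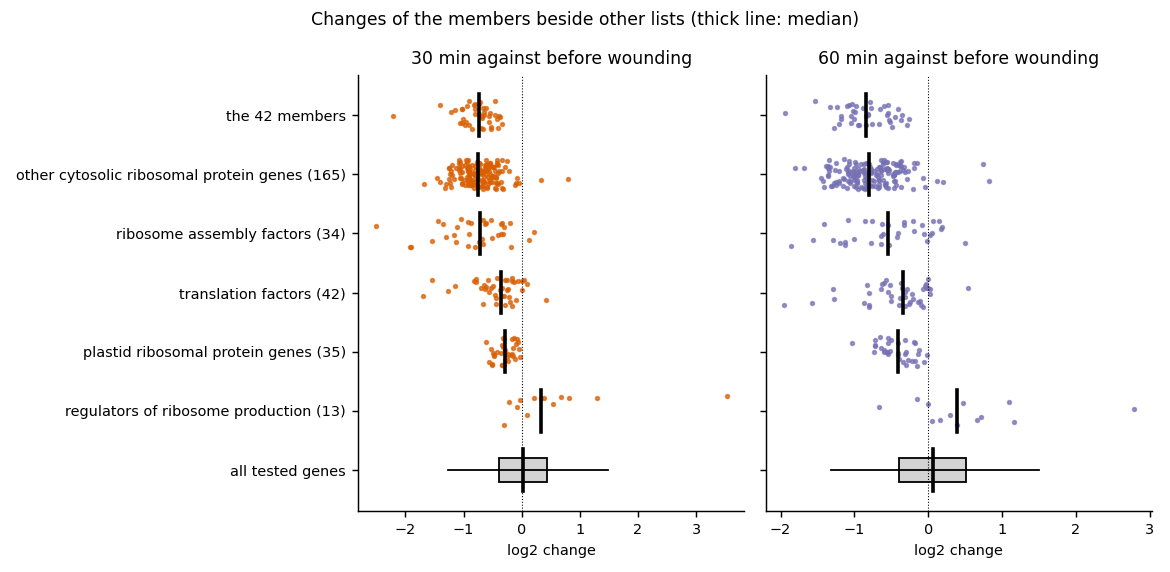
Log2 change of each gene at 30 min (left) and 60 min (right) against before wounding for the 42 genes and 5 other lists, with the number tested; thick lines are medians, and for all tested genes the box spans the middle 50% and the line the 5th to 95th percentile. The 42 genes and the other cytosolic ribosomal protein genes sit at medians of -0.73 to -0.84, regulators above 0.

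Promoters of ribosomal protein genes in Arabidopsis are known for site II elements, bound by TCP factors, and for telo boxes, short repeats like those of chromosome ends. Windows ran from 250 bases before to 50 bases after the annotated start. At least 1 site II core was held by 34 of the 42 genes (81.0%), against 21.7% of 27443 protein-coding genes and 26.7% of 17603 tested genes. A telo box core was found in 19 of 42 (45.2%), against 6.22% of all and 5.52% of the tested. Both were present in 15 of 42 (35.7%), against 2.2% and 2.5%. Neither was present in 4 (9.52%), which were RPS13A, RPL23AA, RPS5B and RS27A, against 74.3% and 70.3%. At least 2 separate site II cores were found in 27 of 42 (64.3%), against 13.4% and 17.8%. The other cytosolic ribosomal protein genes had similar shares, 74.7% and 48.3%, and ribosome assembly factors 68.6% and 48.6%, while 0 of the 8 photosynthetic markers held either core. Of the 85 site II cores of the 42 genes 65 were centred before the start, with a median 39 bases before it. Of the 21 telo box cores 8 were before it, with a median 16 bases after it.

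Changes were set beside the cores as a description, with no test. Median log2 changes at 30 and 60 min were -0.74 and -0.88 for the 8 genes with no site II core, -0.82 and -0.99 for the 7 with 1 core, and -0.70 and -0.79 for the 27 with at least 2. The 19 genes with a telo box core had medians of -0.56 and -0.60, and the 23 without had -0.80 and -0.99, with wide overlap, from -1.15 to -0.34 with the core and from -2.21 to -0.39 without at 30 min. The window of AT1G70600, which had the steepest precise fall, is shown as one without a telo box core, from chr1:26621750-26622029 (minus strand), up to 30 bases after the start, with its site II core in capitals.
AT1G70600: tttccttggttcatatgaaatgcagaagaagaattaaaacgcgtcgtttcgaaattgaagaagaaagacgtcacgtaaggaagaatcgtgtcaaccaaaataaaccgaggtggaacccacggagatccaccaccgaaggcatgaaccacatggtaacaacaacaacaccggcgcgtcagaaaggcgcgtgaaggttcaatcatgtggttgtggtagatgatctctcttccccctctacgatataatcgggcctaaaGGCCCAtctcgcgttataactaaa
A second site II core of this gene lies just past the printed end. A match to these letters is a description and not a bound site, and annotated starts may differ from those used in the leaf.

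**Figure D5:**
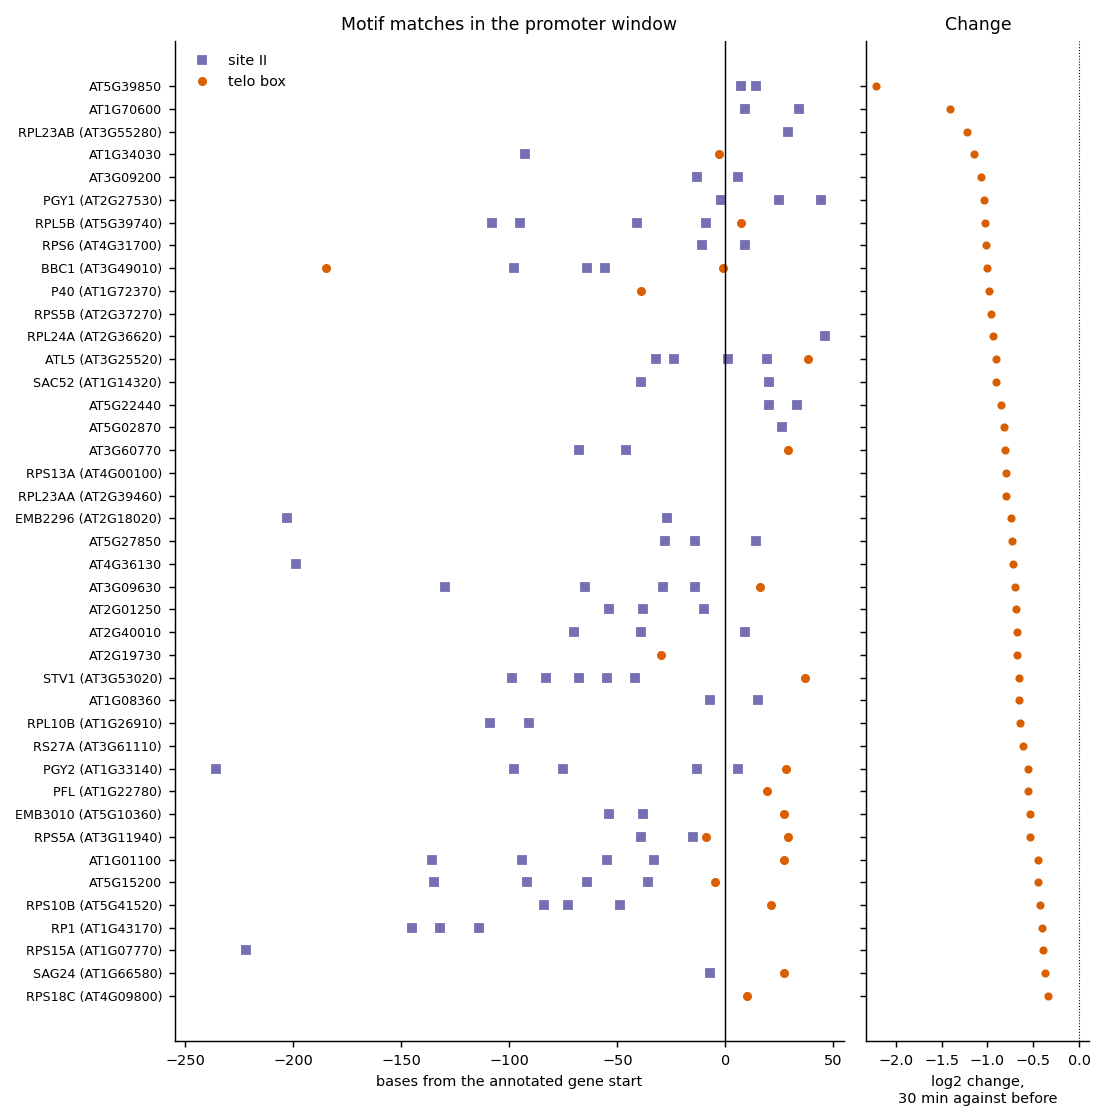
Left, position of each site II core (squares) and telo box core (circles) from the annotated gene start, in bases, for 41 of the 42 genes ordered by their change at 30 min, largest fall on top. Right, log2 change at 30 min against before wounding; the 3 largest falls are of genes without a telo box core and the 2 smallest of genes with one, and the rest are mixed, with a median over all 42 genes of -0.56 for the 19 with the core and -0.80 for the 23 without.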

How the data were processed

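Polyadenylated RNA of 9 leaf samples (3 times, 3 replicates each) was analysed from 1 table of raw counts per gene that the authors deposited. Per the submitters' processing notes, FastQC 0.11.8, Trimmomatic 0.36, HISAT2 2.2.0, featureCounts and the TAIR10 build were used; strand use, multi-mapped reads and annotation version are not given in the sources used here. Paralogs and genes on opposite strands could share reads: 4 of the 42 genes had under 90% of exonic stretches of 50 bases found in no other gene (AT1G33140, AT5G27850, AT2G40010, AT4G36130), and 7 overlapped a gene on the other strand.

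Genes were filtered with filterByExpr and fitted in edgeR 4.0.16 (R 4.3.3; TMM, glmQLFit, glmQLFTest, group as the only term, all 9 samples), with two-sided p-values adjusted by Benjamini-Hochberg over 17622 genes and a threshold of 0.05. The common biological coefficient of variation was 0.217. SE is the absolute log2 change divided by the square root of F and is rough. Chi-square per degree of freedom between replicates, computed to look for copied libraries, was 6.91 to 41.1. Replicates thus differed by more than counting noise, none was taken as a copy, and all were kept. The fit was tested on simulated counts. Alternatives were DESeq2 1.42.0, limma-voom (limma 3.58.1), other scaling and filters, a replicate block, and leaving out each library. A gene of the 42, kept in all counts and medians, is not reported here by itself. The 42 genes, the lists and the motifs were chosen with earlier results of these data known. Genes given in full were the 6 with the largest and the 6 with the smallest falls at each time, 2 of each between 60 and 30 min, and the 3 most and 3 least abundant, with others added for their family; from each list the 3 genes with the smallest F test p were named, and any others after their values were seen. Symbols, lengths, coordinates and sequences came from RefSeq's TAIR10.1 annotation, with protein identity from translated coding sequences aligned globally.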

Additional observations from a re-analysis of the deposited data

How the results depend on the processing

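Every log2 change of the 42 genes at 30 and 60 min was below 0 under each alternative. The number that fell at 30 min was 35 by edgeR, 37 by DESeq2, 35 by limma-voom and 32 with library size alone, 23 at an adjusted p under 0.01, and 22 to 37 with 1 library left out. At 60 min it was 36, 37, 36 and 30, and 25 to 37 with 1 library left out (25 without before-wounding replicate 3, where 11.4% of all tested genes fell). Library size alone put the median of all tested genes at 0.12 at 30 min and 0.28 at 60 min, and that of the 42 genes at -0.63 at 60 min and 0.033 between 60 and 30 min, where it was -0.08 with TMM. Without 1 library the median between 60 and 30 min ran from -0.19 to 0.051, the summed share between 60 and 30 min from -0.0302 to 0.0584 percentage points (0.00970 in all samples), and AT5G39850 from -0.19 to 0.65 between 60 and 30 min (0.27 in all samples), so no direction is given for any of them; the cause was not tested. The 8 paralog shares recomputed, at both times, kept their direction in 92 of 96 values without 1 library. This is no sign of stability, because the groups of every gene but AT3G60770 did not overlap. Leaving out 1 library could therefore not reverse them. The share of AT3G60770 changed by -1.17 to 0.876 points at 30 min (-0.209 in all samples). It was above 0 without before-wounding or 30 min replicate 1. At 60 min it changed by -1.87 to 0.77 points (-0.495 in all samples). There it was above 0 without before-wounding or 60 min replicate 1. On counts not divided by length, an alternative chosen after seeing the data, 16 of 16 values kept their direction. With the replicate block 31 genes fell at 30 min and 35 at 60 min (10.8% and 12.8% of all tested genes); same-numbered samples did not deviate together (r from -0.37 to 0.16), so the numbers were not taken as pairs. With 14300929 counts 30 min replicate 1 is the shallowest library, and AT5G39850, with 4 to 50 counts, is the 1 gene limited by depth.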
